A study of Arabidopsis thaliana with 2 samples.

Results

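Genes for redox enzymes bound by LHY, a clock transcription factor of the MYB family, were taken from a table of genes paired with LHY binding regions in Arabidopsis thaliana. A gene was included where its deposited name holds cytochrome P450, peroxidase, oxidoreductase, dehydrogenase, oxygenase, thioredoxin, glutaredoxin or reductase. This gave 55 of 1602 genes, 3.43% of the table, without use of any measured value. Wild-type Col-0 seedlings were grown for 2 weeks and collected 2 h after dawn. Chromatin was precipitated with an antiserum to LHY, and 4 independent precipitations were pooled into 1 library. The only other library was 1 of input DNA from the same kind of seedlings. The input library serves as the control of the peak caller, and no plants lacking LHY were analysed here. With 1 library a group there is no replicate error, and depth is unknown.

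Redox enzymes move electrons between substrates and cofactors such as NADPH, haem, flavin, iron-sulphur clusters or protein thiols. In leaves they carry chlorophyll synthesis, respiration, nitrogen assimilation and the removal of peroxides, and many cytochrome P450s build or break down hormones and defence compounds. LHY and its homologue CCA1 act at dawn and mainly repress genes expressed later in the day. A peak marks where LHY was found on chromatin, and does not show that the gene responds to it.

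Each peak carries the −log10 q that the authors obtained from their peak caller. Its position is counted in bp from the gene's transcription start site (TSS), with upstream values negative. Below, a number in parentheses after a gene is this −log10 q for the strongest peak. The authors also listed a phase for some genes, the hour after subjective dawn at which expression peaks in constant light. It comes from a database and was not measured in this series, and a gene without a phase is either not rhythmic there or not covered.

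By name, the 55 genes fell into 15 dehydrogenases, 12 cytochrome P450s, 8 oxygenases, 6 peroxidases, 6 thioredoxins, 6 reductases and 2 oxidoreductases, and 0 were named glutaredoxin. All 55 matched the reference table, 54 as protein-coding genes and 1, AT5G36270, a relative of the dehydroascorbate reductase gene DHAR2, as a transcribed pseudogene. The names fitted the functions given in the deposited descriptions with exceptions. FRD3 (AT3G08040) is named for a loss of ferric reductase activity, but its description gives antiporter activity and a MatE transporter domain. AT3G24490 is described as a MADF-domain transcription factor, AT2G25950 by a proteasome-interacting thioredoxin-like domain alone, and PLAT2 (AT2G22170) by a PLAT/LH2 domain of unknown function. Conversely, AT2G47870 and AT4G10000, named for thioredoxins, carry a glutaredoxin domain in their descriptions. The symbol PRR1 here stands for pinoresinol reductase 1 (AT1G32100), an enzyme of lignan synthesis, and not for a pseudo-response regulator of the clock.

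Peak strength varied widely among these genes, from 3.28 at MIOX2 to 161 at JMJD5. The median was 12.3 with quartiles of 8.29 and 26.3, and its exact 95% interval from order statistics ran from 9.39 to 17.3. Over all 1602 genes the median was 10.3, which lies inside that interval. Above 18.3, the upper quartile of all genes, lay 17 of the 55 genes (30.9%, exact 95% interval 19.1 to 44.8), beside 25.0% of all genes by construction. Below the lower quartile of all genes, 6.80, lay 10 genes (18.2%, exact 95% interval 9.08 to 30.9). The share over all genes, 23.3%, lies inside that interval. Above 100 lay 3 of the 55, namely JMJD5, PORB and GPX6. They made 11.1% of the 27 such genes in the table, beside 3.43% of all its genes. Of the 102 genes above 50, the redox genes made 4.9%. These counts are small, and the difference was not tested.

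**Figure D1:**
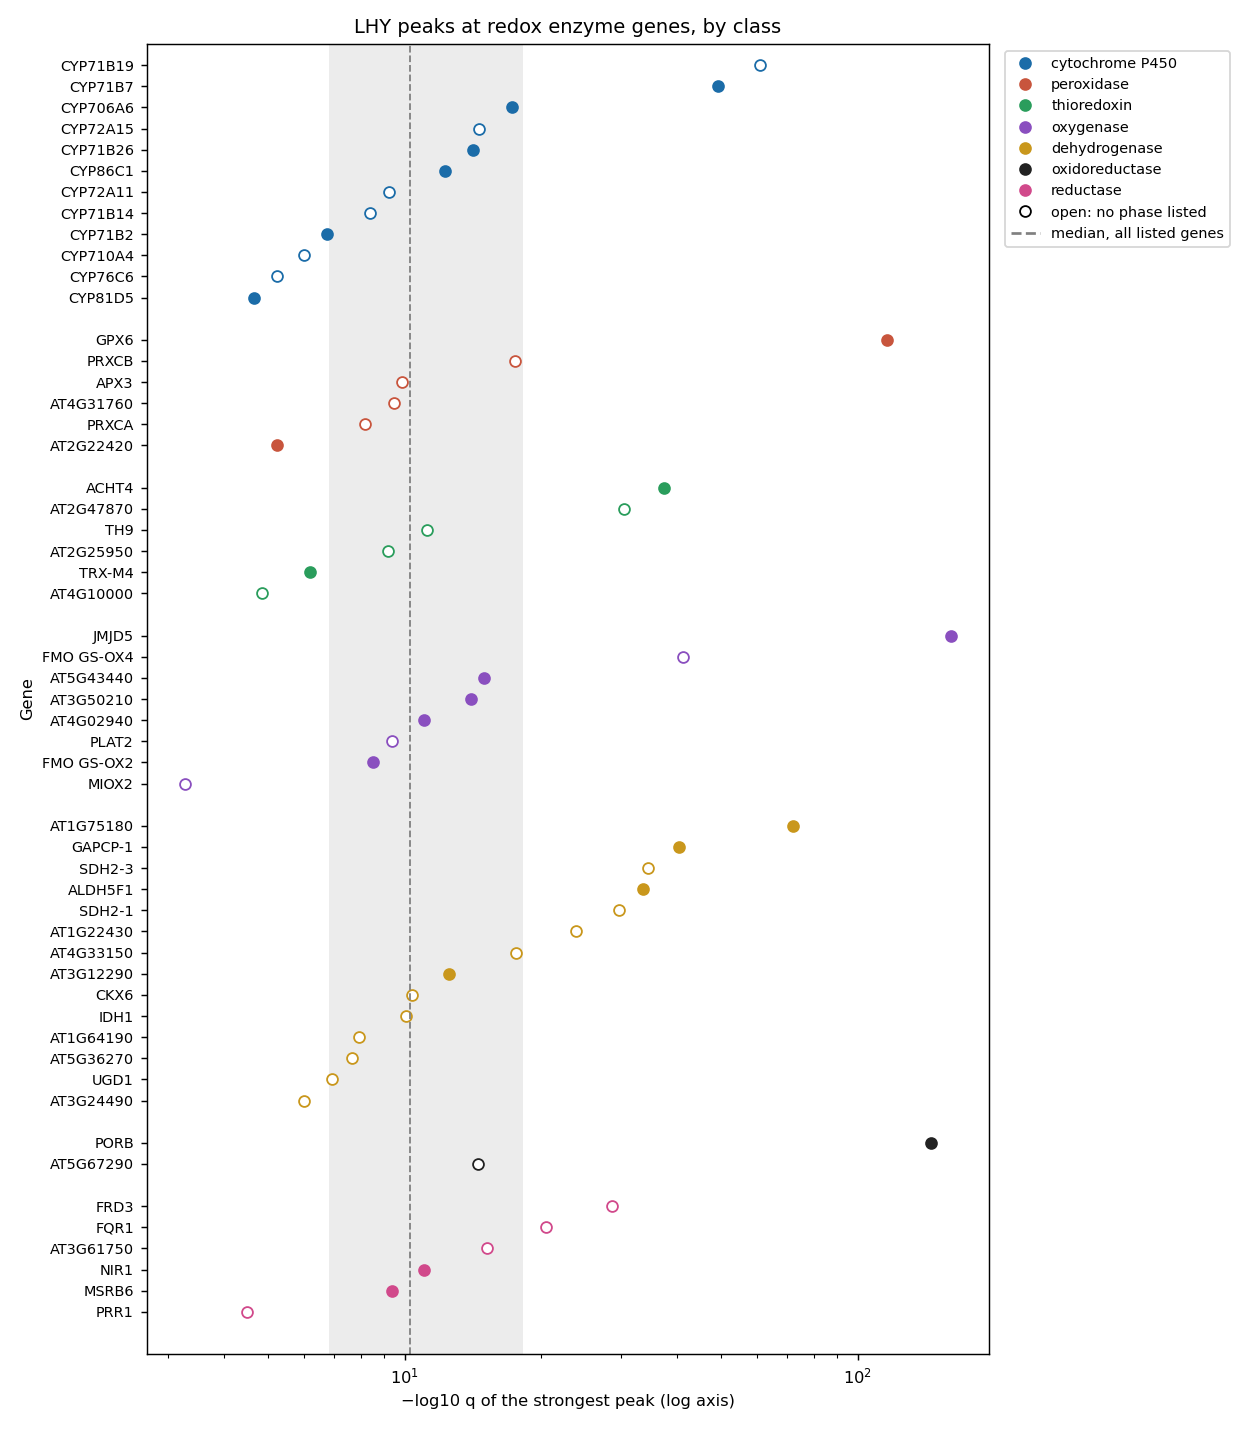
Strength of the strongest LHY peak at 54 of the 55 redox enzyme genes, grouped by the class in the gene name; the x axis is −log10 q on a log scale. Filled points have a listed phase and open points none, the dashed line is the median of all 1602 genes (10.3) and the grey band their quartiles (6.80 to 18.3). JMJD5, PORB and GPX6 stand above 100, and every class with 6 or more genes reaches to both sides of the dashed line.

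The strongest peak belonged to JMJD5 (AT3G20810), deposited as a 2-oxoglutarate and Fe(II)-dependent oxygenase and known as a jumonji-domain component of the evening clock. Its value of 161 at 37 bp downstream of the TSS ranked 6 in the whole table, and its phase was 11 h. PORB (AT4G27440), which reduces protochlorophyllide to chlorophyllide in the light, had 145 at −127 bp, rank 10, with a phase of 6 h. GPX6 (AT4G11600), a glutathione peroxidase that detoxifies lipid hydroperoxides, had 116 at 42 bp downstream, rank 19, with a phase of 12 h. All 3 peaks lay close to the TSS, and the 3 phases fell between midday and subjective dusk. Of all 610 genes with a phase, 45.4% had 6 to 11 h and a further 26 genes had 12 h. Over all genes, 33.4% of strongest peaks lay up to 300 bp upstream and 11.6% at or downstream of the TSS. Whether these 3 genes differ from the table was not tested.

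Next came AT1G75180, a member of the erythronate-4-phosphate dehydrogenase family, with 72.1 at −293 bp and a phase of 1 h. The same −log10 q was listed for AT1G75190, 2 places away in the annotation, at −760 bp with a phase of 7 h, so that this peak was counted as shared and cannot be given to either gene. Leaving it out, the strongest dehydrogenase was GAPCP-1 (40.4).

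Dehydrogenases formed the largest class and had a median of 17.6 (exact 95% interval 7.92 to 33.6). The median over all genes, 10.3, lies inside that interval. Above the upper quartile of the table lay 7 of 15 dehydrogenases (46.7%, exact 95% interval 21.3 to 73.4). The share over all genes, 25.0%, lies inside that interval too. The 7 include AT1G75180, whose peak was counted as shared. Several dehydrogenases serve central carbon metabolism. GAPCP-1 (AT1G79530), the plastid glyceraldehyde-3-phosphate dehydrogenase of glycolysis, had its peak at −522 bp and a phase of 22 h. ALDH5F1 (AT1G79440), the succinic semialdehyde dehydrogenase of the GABA shunt, had 33.6 at 40 bp downstream and a phase of 10 h.

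Succinate dehydrogenase, complex II of the mitochondrial electron transport chain, was represented by its iron-sulphur subunit. SDH2-3 (AT5G65165) had 34.5 at −55 bp and SDH2-1 (AT3G27380) had 29.8 at −220 bp, both without a phase. Of the 3 SDH2 genes in the reference table, SDH2-2 was absent from the list. The listed share of all nuclear protein-coding genes was 5.38%, and this small family was chosen with its listed members known. IDH1 (AT4G35260), a subunit of the mitochondrial NAD-dependent isocitrate dehydrogenase, had a weaker peak of 10.08 at −45 bp and no phase.

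AT1G64190, of the 6-phosphogluconate dehydrogenase family, which makes NADPH outside photosynthesis, had 7.92 at 40 bp downstream and no phase.

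A pair of enzymes that lead by separate routes towards UDP-glucuronate, a precursor of cell wall sugars, had weak peaks near the TSS. UGD1 (AT1G26570), a UDP-glucose dehydrogenase, had 6.91 at 80 bp downstream. MIOX2 (AT2G19800), a myo-inositol oxygenase, had 3.28 at −47 bp, rank 1580 of 1602 and the weakest of the 55. Neither had a phase.

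The remaining genes of this class have varied roles. AT1G22430, a zinc-binding dehydrogenase of the GroES-like family, had 23.96 at the TSS itself (0 bp). AT4G33150, the bifunctional enzyme that starts lysine breakdown, had 17.6 at −794 bp, and CKX6 (AT3G63440), which degrades cytokinin, had 10.4 at −1403 bp; these 3 had no phase. AT3G12290, described as a tetrahydrofolate dehydrogenase/cyclohydrolase, had 12.5 at 19 bp downstream and a phase of 5 h. AT5G36270 (7.64 at −2205 bp) and AT3G24490 (6.0 at −2254 bp) had the peaks farthest from the TSS in this class; as given above, they are a transcribed pseudogene and a MADF-domain gene.

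Cytochrome P450s, haem monooxygenases of the endoplasmic reticulum, had a median of 10.8, close to that of all genes. Only CYP71B19 (AT3G26170) and CYP71B7 (AT1G13110) were above the upper quartile of the table. CYP71B19 had 61.0 at −2549 bp, rank 79, without a phase, and CYP71B7 had 49.3 at −382 bp with a phase of 8 h. These and CYP71B26 (AT3G26290, 14.2), CYP71B14 (8.41) and CYP71B2 (AT1G13080, 6.75) made 5 of 12 P450s members of the CYP71B subfamily.

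A CYP71B symbol is carried by 33 nuclear protein-coding genes of the reference. Of these, 5 were listed (15.2%, exact 95% interval 5.11 to 31.9). The share of all 27444 nuclear protein-coding genes, 5.38%, lies inside that interval. The subfamily was picked with its listed members known. For all 234 genes with a CYP symbol the count was 16 (6.84%, exact 95% interval 3.96 to 10.9). CYP71B genes are arranged partly in tandem, and no source used here says how reads matching several copies were treated. CYP71B7 and CYP71B2 lie 3 places apart in the annotation and differed in both value and phase, with 6.75 at −156 bp and 22 h at CYP71B2. The phase of CYP71B26, with its peak at −379 bp, was 5 h.

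Outside CYP71B, CYP706A6 (AT4G12320) had 17.3 at −874 bp and a phase of 12 h. CYP72A15 (AT3G14690) had 14.6 at −148 bp, and CYP72A11 (AT3G14650), 4 places away, had 9.22 at 54 bp downstream; neither had a phase. CYP86C1 (AT1G24540), of a family of fatty acid hydroxylases, had 12.3 at −2251 bp and a phase of 4 h. CYP710A4 (AT2G28860), of the sterol C-22 desaturase subfamily, had 6.0 at −3008 bp, and CYP76C6 (AT1G33720) had 5.23 at −674 bp. CYP81D5 (AT4G37320) had the weakest P450 peak, 4.64 at −154 bp, with a phase of 17 h. The farthest of all 55 peaks was at CYP71B14 (AT5G25180), 6407 bp upstream.

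A further 4 P450 genes were in the table under names without the term. BR6OX2 (CYP85A2), the last enzyme of brassinolide synthesis, had 29.9 at −7133 bp, and BAS1 (CYP734A1), which inactivates brassinosteroids, had 5.23 at −6006 bp. TT7 (CYP75B1), a flavonoid hydroxylase, had 10.3 at −2587 bp, and C4H, the cinnamate hydroxylase of the phenylpropanoid pathway, had 9.85 at −185 bp. Their phases were 1 h and 5 h for the brassinosteroid genes and 20 h for both TT7 and C4H. In the list of 26 P450 genes of hormone and glucosinolate synthesis and breakdown, drawn up with earlier results of these data known, the listed genes were these same brassinosteroid enzymes, 2 of 26 (7.69%, exact 95% interval 0.946 to 25.1, which also holds 5.38%). The CYP707A genes of abscisic acid breakdown were absent.

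Peroxidases use hydrogen peroxide or lipid peroxides as oxidants. After GPX6 they had moderate to weak peaks, and the class median was 9.70. The tandem genes PRXCB (AT3G49120) and PRXCA (AT3G49110), which encode apoplastic peroxidases of the defence oxidative burst, had 17.5 at −1568 bp and 8.18 at −1952 bp and no phase. They are close paralogues, and whether reads were divided between them was not tested. APX3 (AT4G35000), an ascorbate peroxidase of peroxisomes, had 9.89 at −99 bp. Of the superfamily members without a symbol, AT4G31760 had 9.50 at −294 bp, and AT2G22420 had 5.23 at −1591 bp and a phase of 16 h.

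GPX6 was the only one of 8 GPX genes in the table, and APX3 the only one of 7 genes with an APX-type symbol. In the wider list of peroxide and superoxide scavengers, 3 of 31 matched genes were present (9.68%, exact 95% interval 2.04 to 25.8). The 5.38% of all nuclear protein-coding genes lies inside this interval. Besides GPX6 and APX3 the list gave the catalase gene CAT1, with 6.39 at 50 bp downstream and a phase of 7 h. No superoxide dismutase or dehydroascorbate reductase gene of that list was present. The symbols CAT2, CAT3, MDAR2 and GR1 did not lead to a single locus and were left out.

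**Figure D2:**
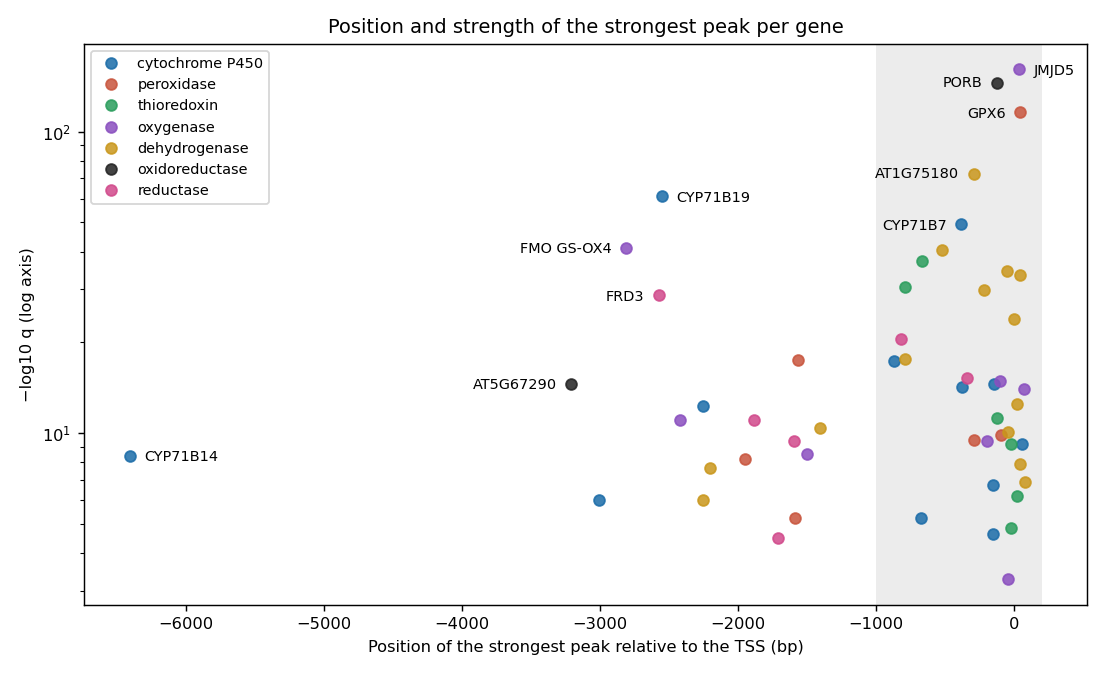
Position of the strongest peak relative to the TSS in bp (x axis, negative upstream) and its −log10 q on a log scale (y axis) for 54 of the 55 genes, coloured by class, with the promoter window (1000 bp upstream to 200 bp downstream) in grey. The 4 strongest genes lie inside the window, CYP71B19, FMO GS-OX4 and FRD3 are the strongest outside it, and CYP71B14 is the farthest at −6407 bp.

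Thioredoxins are small proteins that reduce disulphides in other proteins, although 3 of the 6 genes named for them carry other domains in their descriptions, as given above. All 6 had their peak in the promoter window, defined here as 1000 bp before the TSS to 200 bp after it, beside 68.3% of all genes. That share lies inside the class interval (exact 95% interval 54.1 to 100.0%). ACHT4 (AT1G08570), an atypical chloroplast thioredoxin linked to the control of starch synthesis, had 37.3 at −671 bp and a phase of 18 h. AT2G47870, with a plant glutaredoxin domain, followed with 30.5 at −794 bp and no phase.

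The other 4 genes of this class had weaker peaks closer to the TSS. TH9 (AT3G08710), an h-type thioredoxin described in the cytosol, nucleus, plasma membrane and plastid, had 11.2 at −122 bp. AT2G25950 had 9.20 at −21 bp, and ELF3, a component of the evening complex 3 places away, had a much stronger peak of 62.7 at −19 bp. TRX-M4 (AT3G15360), an m-type thioredoxin of chloroplasts, had 6.19 at 19 bp downstream and a phase of 8 h, and its immediate neighbour AT3G15357 had 32.5 at −12 bp. AT4G10000, described as a chloroplast protein, had 4.85 at −21 bp. In the list of the thioredoxin system, TH9 and TRX-M4 were the 2 of 19 matched genes present (10.5%, exact 95% interval 1.30 to 33.1, which holds the 5.38% of all nuclear protein-coding genes), and the NADPH-dependent thioredoxin reductase genes NTRA, NTRB and NTRC were absent.

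Among oxygenases after JMJD5, FMO GS-OX4 (AT1G62570) had 41.2 at −2811 bp without a phase. FMO GS-OX2 (AT1G62540), 4 places away, had 8.5 at −1498 bp and a phase of 18 h. Both encode flavin monooxygenases that oxidise the sulphur in the side chain of glucosinolates, the defence compounds of the cabbage family. They were 2 of the 5 FMO GS-OX genes in the reference table, beside 5.38% of all nuclear protein-coding genes. This family was chosen with its listed members known, and these 2 are close neighbours, so the count is a description only. The 3 remaining 2-oxoglutarate-dependent oxygenases all had a phase. AT5G43440 had 14.9 at −100 bp and 7 h, AT3G50210 had 14.0 at 71 bp downstream and 8 h, and AT4G02940 had 11.1 at −2423 bp and 16 h. PLAT2 had 9.39 at −198 bp.

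Of the 6 genes named for reductases, FQR1 and AT3G61750 had a peak inside the promoter window (33.3%, exact 95% interval 4.33 to 77.7). The share over all genes, 68.3%, lies inside this interval, and the class median position was −1653 bp. FRD3, known to load citrate into the xylem for iron transport, had 28.7 at −2574 bp. FQR1 (AT5G54500), an auxin-induced quinone reductase, had 20.6 at −820 bp, and AT3G61750, a cytochrome b561 protein, had 15.2 at −345 bp. These 3 had no phase.

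NIR1 (AT2G15620), the nitrite reductase of plastids, had 11.1 at −1888 bp and a phase of 14 h, whereas the nitrate reductase genes NIA1 and NIA2 were absent. MSRB6 (AT4G04840), which repairs oxidised methionine, had 9.39 at −1594 bp and a phase of 0 h. PRR1 had 4.50 at −1712 bp and no phase. With PORB, NIR1 made 2 of the 6 genes in the list of protochlorophyllide reduction and nitrate assimilation, where PORA and PORC were absent too. Of 16 gibberellin and flavonoid genes, only GA2OX1 was present, with 63.2 at −3106 bp; it is named an oxidase. None of 15 carotenoid cleavage and lipoxygenase genes was present. The exact 95% interval of 0 to 21.8% includes the 5.38% of all nuclear protein-coding genes, as do those of the preceding pair of lists (4.33 to 77.7% and 0.158 to 30.2%).

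More than 1 peak was listed for 1 of the 55 genes (1.82%, exact 95% interval 0.0460 to 9.72). The share over all genes, 9.11%, lies inside that interval. This was AT5G67290, of the FAD-dependent oxidoreductase family, without a phase. Its strongest peak, 14.6 at −3209 bp, had the same value as that of the adjacent transcription factor gene MYBR1 at −968 bp and was counted as shared. The others were 12.01 at −46 bp and 4.43 at −3929 bp.

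By position, 37 of the 55 strongest peaks lay in the window from 1000 bp upstream to 200 bp downstream (67.3%, exact 95% interval 53.3 to 79.3). The share over all genes, 68.3%, lies inside that interval. At or downstream of the TSS lay 10 peaks (18.2%, exact 95% interval 9.08 to 30.9), beside 11.6% of all genes. They included 5 of the 15 dehydrogenases (33.3%, exact 95% interval 11.8 to 61.6, which starts just above 11.6%). More than 2000 bp upstream lay another 10 (18.2%), beside 15.4%. They included 4 of the 12 P450s (33.3%, exact 95% interval 9.92 to 65.1, which holds 15.4%). Differences between these small classes were not tested. Peaks had been assigned to the nearest gene that faces away, a choice of the authors that by itself favours upstream positions.

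The median was 14.6 over the 37 genes with the peak inside the window and 9.89 over the 18 genes with it outside. Over all genes these medians were 10.8 and 9.43. Exact 95% intervals of the 2 medians among the 55 genes, 9.89 to 20.6 and 7.64 to 14.6, overlapped.

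A phase was listed for 23 of the 55 genes (41.8%, exact 95% interval 28.7 to 55.9), beside 38.1% of all genes. By class the count was 6 of 12 P450s, 5 of 8 oxygenases, 5 of 15 dehydrogenases, 2 of 6 in each of the peroxidases, thioredoxins and reductases, and 1 of 2 oxidoreductases. Above the upper quartile 9 of 17 genes had a phase (52.9%), against 14 of 38 below it (36.8%). For all genes these shares were 52.6% and 33.2%, in the same order as among the redox genes.

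**Figure D3:**
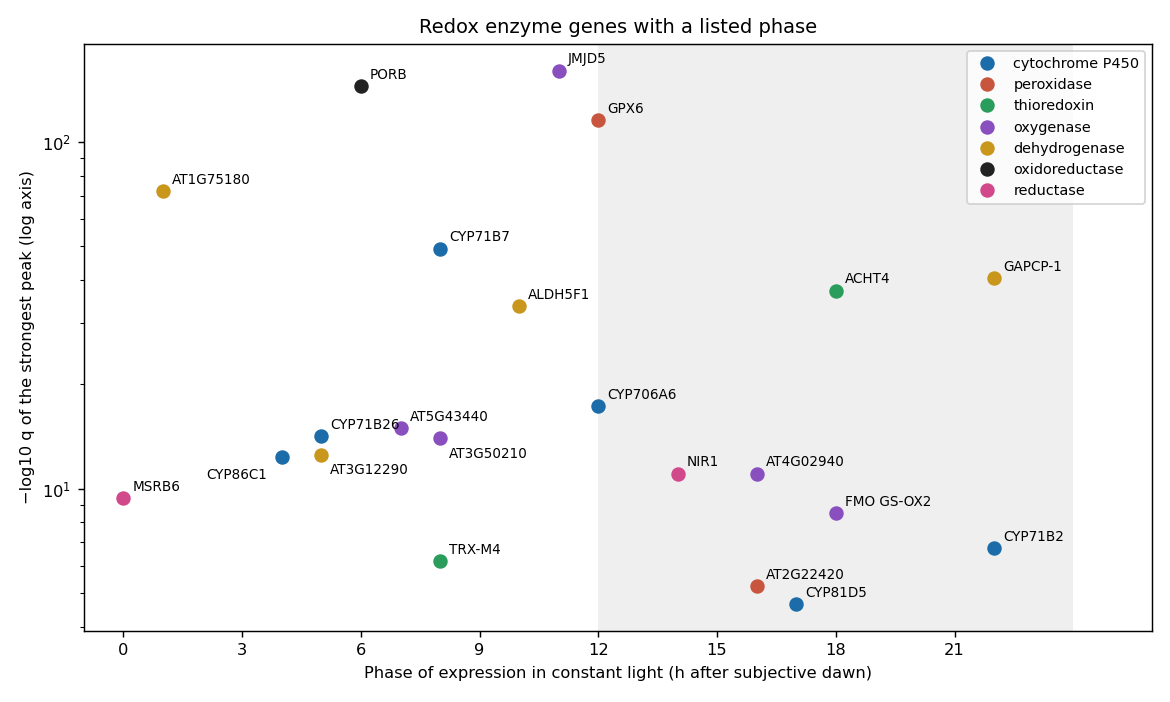
Phase of expression in constant light, in hours after subjective dawn (x axis, subjective night in grey), and −log10 q of the strongest peak on a log scale (y axis) for 22 of the 23 redox enzyme genes with a listed phase, coloured by class. JMJD5, PORB and GPX6, the 3 strongest, lie between 6 and 12 h, while GAPCP-1 at 22 h and ACHT4 at 18 h are the strongest from 18 h onwards.

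The phases were spread around the day. At 6 to 11 h lay 8 of 23 genes (34.8%, exact 95% interval 16.4 to 57.3), beside 45.4% of all genes with a phase. They included PORB, AT5G43440, CYP71B7, AT3G50210, TRX-M4, ALDH5F1 and JMJD5. At 12 to 17 h lay 6 genes (26.1%, exact 95% interval 10.2 to 48.4), beside 17.4%, namely GPX6, CYP706A6, NIR1, AT4G02940, AT2G22420 and CYP81D5. At 0 to 5 h lay 5 genes (21.7%), beside 22.5%: MSRB6, AT1G75180, CYP86C1, CYP71B26 and AT3G12290. At 18 to 23 h lay 4 genes (17.4%), beside 14.8%: ACHT4, FMO GS-OX2, GAPCP-1 and CYP71B2. Each of the 4 background shares lies inside the interval of the redox genes.

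Within classes the phases were spread widely. The 6 rhythmic P450s covered 4, 5, 8, 12, 17 and 22 h. Both rhythmic peroxidase genes peaked in the subjective night or at dusk, GPX6 at 12 h and AT2G22420 at 16 h. ALDH5F1 had a phase of 10 h, opposite to GAPCP-1 at 22 h, although both serve carbon metabolism. ACHT4 and TRX-M4, both of chloroplasts, were 10 h apart.

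Plastid and endomembrane locations were given more often in the deposited descriptions than in the table as a whole, whose shares lie below the intervals of the redox genes. A plastid, chloroplast or thylakoid location was given for 13 of 55 genes (23.6%, exact 95% interval 13.2 to 37.0), beside 12.9% of all genes, and for 4 of 6 thioredoxins but 0 of 12 P450s. The endomembrane system was given for 12 (21.8%, exact 95% interval 11.8 to 35.0), beside 8.43%, of which 8 were P450s. With 12 genes in place of 13, the plastid interval would also be 11.8 to 35.0 and would hold 12.9%. The plastid difference therefore rests on 1 gene. The 13 include PLAT2, not described as an enzyme, and TH9, whose description also gives places outside the plastid. A mitochondrial location was given for 4 (7.27%, exact 95% interval 2.02 to 17.6), beside 2.68%, which lies inside that interval; these were GPX6, ALDH5F1, SDH2-1 and NIR1. A location of any kind was recorded for 67.3% of the redox genes and 54.2% of all genes. The part of that fuller annotation in these differences was not tested.

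**Figure D4:**
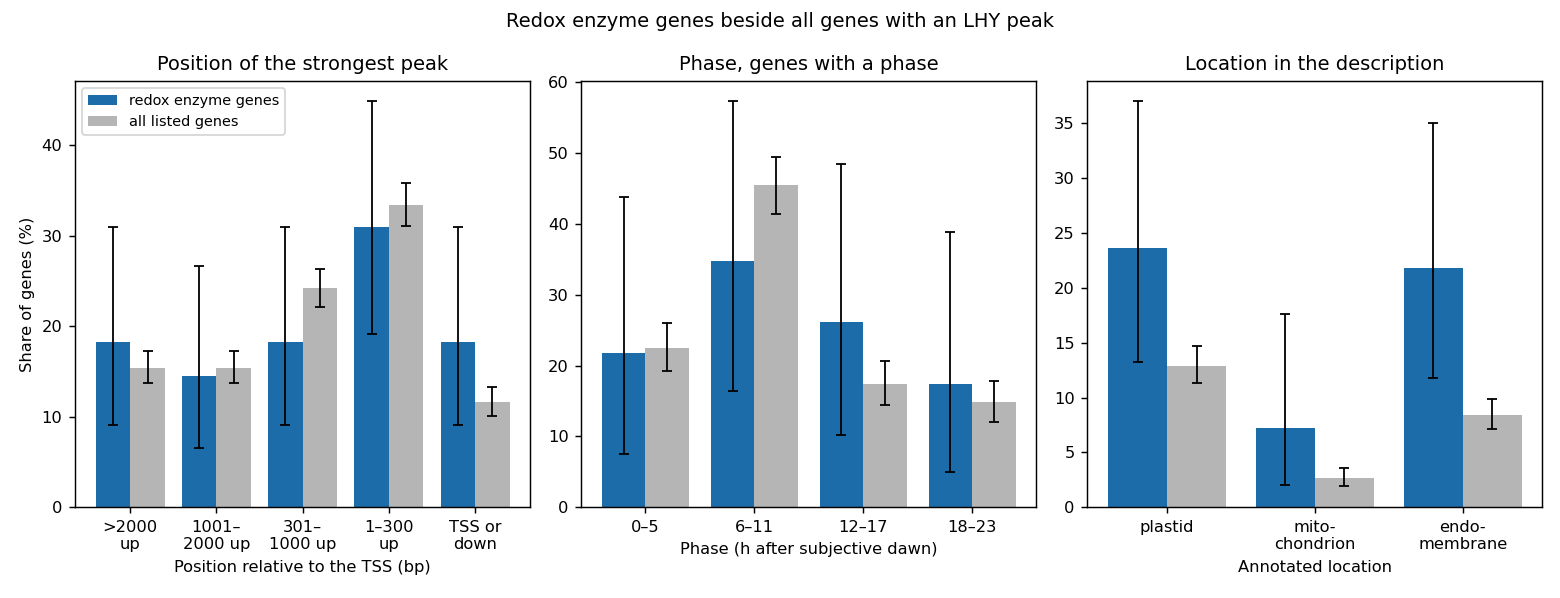
Share of genes in percent (y axis) by position of the strongest peak (left), by phase among genes with a listed phase (middle) and by location in the deposited description (right), for the redox enzyme genes in blue and for all listed genes in grey; bars are shares and whiskers exact 95% intervals over genes. In the left and middle panels the grey share lies inside the blue interval in every bin, while the plastid share is 23.6% against 12.9% and the endomembrane share 21.8% against 8.43%. The blue plastid interval starts at 13.2%, just above the grey share.

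Several of these genes sit close together. Among the 55, 7 pairs lay within 20 places of each other in the annotation. Besides the pairs CYP71B2 and CYP71B7, CYP72A11 and CYP72A15, PRXCA and PRXCB, and FMO GS-OX2 and FMO GS-OX4, these included CYP71B19 and CYP71B26, and ALDH5F1 and GAPCP-1. In the 4 close pairs of paralogues the stronger peak was 1.58 to 7.31 times the weaker on the −log10 q scale. For 6 genes a listed neighbour at most 3 places away had a higher value, as at AT2G25950, TRX-M4, CYP71B2, PRXCA, AT3G12290 and MIOX2. At MIOX2 the neighbour was AT2G19806, described as a Mariner-like transposase, with 83.8 at −1537 bp. Neither close pairs nor stronger neighbours were counted over all listed genes. These counts therefore cannot be called particular to the redox genes.

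Against the whole genome, the same terms were sought in the symbols and synonyms of the reference table, which found 622 nuclear protein-coding genes, 43 of them in the list (6.91%, exact 95% interval 5.05 to 9.20). The share among all nuclear protein-coding genes was 5.38%, inside that interval. By this naming the share was 8.05% for 149 dehydrogenase genes, 5.60% for 232 P450 genes and 6.38% for 94 reductase genes. It was 14.3% for 35 peroxidase genes (exact 95% interval 4.81 to 30.3), and 0 of 8 glutaredoxin genes were listed. These names are less complete than the deposited ones.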

How the data were processed

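LHY binding was measured by ChIP-seq in 1 pooled library against 1 input library. The submitters' processing notes name Bowtie, MACS2 (2.0.10.09132012) and TAIR9. Parameters, the caller's threshold and read depth: not given in the sources used here. For each gene the authors deposited the −log10 q of up to 4 peaks and their positions, although another header line speaks of p-values for these columns. Per the file headers, the authors assigned peaks to the nearest gene that faces away, and took phases, in whole hours, from the Diurnal database (cut-off 0.8).

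A gene went to the first class its name held: cytochrome P450, peroxidase, glutaredoxin, thioredoxin, oxygenase, dehydrogenase, oxidoreductase, reductase. Equal −log10 q at listed genes at most 5 places apart was counted as a shared peak. Names and gene order came from a RefSeq table of TAIR10.1; no coordinate of it was used. The members and lists were chosen with earlier results of these data known, and members are named with their values except 1, which is counted but not reported here. No test was made: with 1 library a group, shares are given with exact Clopper-Pearson intervals at 95%, which treat genes as independent and cover counting error only. The name rule and the intervals were tested on made-up cases. Promoter sequences were not analysed here. Python 3.11.15, NumPy 2.4.6, pandas 2.3.3, SciPy 1.17.1 and Matplotlib 3.10.9 were used.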

Additional observations from a re-analysis of the deposited data

How the results depend on the processing

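Of 22 alternative values, 20 stayed within the 95% interval of the reported value, or within 1.5 times a count. Most alternatives used all or part of the same genes, and the intervals are wide. Staying inside was therefore likely from the start and does not show that the values are robust. The share of strongest peaks in the promoter window became 94.5% with 3000 bp upstream, a wider window by construction, and 54.5% with 500 bp. The number of genes became 103 when the terms were also sought in the deposited functional description, which adds 48 genes, and the share with a phase was then 40.8%. The search of functional descriptions and the removal of the 5 members not described as enzymes were chosen after seeing the data; without those 5, 46.0% had a phase and the median −log10 q was 13.3. With 8 members among 23, the share at 6 to 11 h was the same as at 4 to 9 h and at 8 to 13 h, 34.8% each. Over all genes with a phase these shares were 45.4%, 44.6% and 37.0%, so the difference depended on the hours chosen. Each of them lies inside the interval of the redox genes, 16.4 to 57.3%. The planned search for the evening element in promoters was not run, since no sequence was used here. Equal −log10 q values recur across the table, at 27 of the 55 genes (49.1%) and 56.1% of all genes, so ranks among weak peaks are coarse. Some stronger peaks are tied too: FRD3 (28.7) shared its value with 4 other genes and FQR1 (20.6) with 7. No paired analysis was possible because there is a single ChIP library and a single input library.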

Other observations

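Genes whose deposited description, but not name, holds one of the terms include several that handle iron, lipids and chlorophyll. The ferritin genes, which store iron, were listed in 3 cases: FER3 had 22.3 at −59 bp and a phase of 14 h, FER4 had 12.6 at −11 bp and 8 h, and FER1 had 6.05 at 272 bp downstream and 8 h. The ferric chelate reductase genes FRO3 and FRO2 had 9.05 at −1555 bp and 8.34 at −1462 bp without a phase. NYC1, which reduces chlorophyll b in its breakdown, had 30.8 at −51 bp and a phase of 8 h. These genes were picked after their values were seen, and no test was made of them.

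Of 7 CKX genes, 3 were in the table: CKX6, and the genes CKX2 (9.39 at −465 bp) and CKX3 (6.80 at −5418 bp), which are named cytokinin oxidases. None had a phase. The listed share of all nuclear protein-coding genes was 5.38%. This family was chosen with its listed members known, so the count is a description only.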
